A study of Rattus norvegicus with 30 samples.

Results

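The genes of fatty acid oxidation described here are *Cpt1a*, *Cpt2*, *Acadm*, *Acadl*, *Ehhadh*, *Ppara*, *Ppargc1a* and *Pdk4*, 8 genes chosen by name among the 14217 genes with a probe set of their own on the array. All 8 were measured, by 12 probe sets that carry 1 of these symbols and no other, and each gene was represented by its lead probe set, chosen by its mean level on the 30 arrays, which had to be the highest of that gene. Fatty acids are a main fuel of the renal proximal tubule, and rat milk is rich in fat whereas rat chow is rich in starch, so the passage from suckling to weaning changes the fuels a pup receives. None of the 8 genes encodes an enzyme that makes ketone bodies. The values below therefore describe oxidation and its regulators and not ketogenesis.

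Long-chain fatty acids enter mitochondria as carnitine esters, made by carnitine palmitoyltransferase 1 at the outer membrane (*Cpt1a*, the liver-type form) and turned back to coenzyme A esters by carnitine palmitoyltransferase 2 at the inner membrane (*Cpt2*). Acyl-CoA dehydrogenases of medium (*Acadm*) and long (*Acadl*) chain length then start each round of beta-oxidation. *Ehhadh* encodes the bifunctional enzyme of the peroxisomal pathway. The nuclear receptor PPAR alpha (*Ppara*) and its coactivator PGC-1 alpha (*Ppargc1a*) drive transcription of such genes, and pyruvate dehydrogenase kinase 4 (*Pdk4*), a known target of that receptor, turns cells from glucose to fatty acid fuel by shutting the pyruvate dehydrogenase complex.

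Kidney RNA was measured on 30 GeneChip rat arrays in 6 groups of 5, all from male pups of the SHRSP rat, a hypertensive strain prone to stroke. Dams ate a diet of 20% casein (CN) or 9% casein (LP) while pregnant, and all dams were returned to a commercial diet after delivery. The pups were taken at postnatal day 5 (D5-CN and D5-LP), day 10 (D10-CN and D10-LP) or day 28 (D28-CN and D28-LP). Male pups were separated from their dams in the 4th postnatal week, so the D28 pups were taken near that separation. How many days, if any, the D28 pups had been on solid food alone is not given in the sources used here. Diets were assigned to dams and the litters are not given, and the methods speak of RNA pooled by group whereas the labels speak of biological replicates, so the spread that p-values rest on here is that of arrays and may be technical.

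Kidney identity was checked on the array. The mean of 15 proximal tubule markers was 10.88 to 11.68 in the 6 groups on the log2 scale, where the median probe set averaged 6.80. Some arrays also carried signal of other tissues. On replicates 2 and 3 of the D5-CN group the mean of 8 liver markers was 8.16 and 7.74, against 5.80 to 6.07 on the other D5-CN arrays and 5.83 to 6.76 on the D5-LP arrays, and the mean of 8 adipose markers was higher at D10 (7.34 in the D10-CN group and 7.69 in the D10-LP group) than at D5 (6.19 and 6.16). Of these 8 adipose markers, 5 were called higher from D5 to D10 in each diet and none lower (limma, adjusted p under 0.05). In that step 14.3% of all probe sets were called higher and 30.3% lower in CN, and 11.2% and 28.7% in LP. Among the 8, *Pck1* read 13.05 and 13.12 at D5 and 13.07 and 12.96 at D10 (CN and LP). It was thus high before the rise, so the mean does not read adipose tissue alone. *Lep* and *Elovl3* lay below the median probe set in every group. At D28 the mean of the 8 adipose markers was 6.83 in the D28-CN and 6.69 in the D28-LP group. Replicates 1, 2 and 4 of the D10-LP group stood highest in the adipose marker mean, at 7.96 to 8.34. Replicate 2 of the D28-CN group and replicate 3 of the D28-LP group had the lowest proximal tubule means of their ages (11.14 and 11.15) together with the highest medulla minus cortex marker scores (0.41 and 0.65). Most of the 9 cortex markers in that score are also proximal tubule markers, so the score and the tubule mean are not independent.

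**Figure D1:**
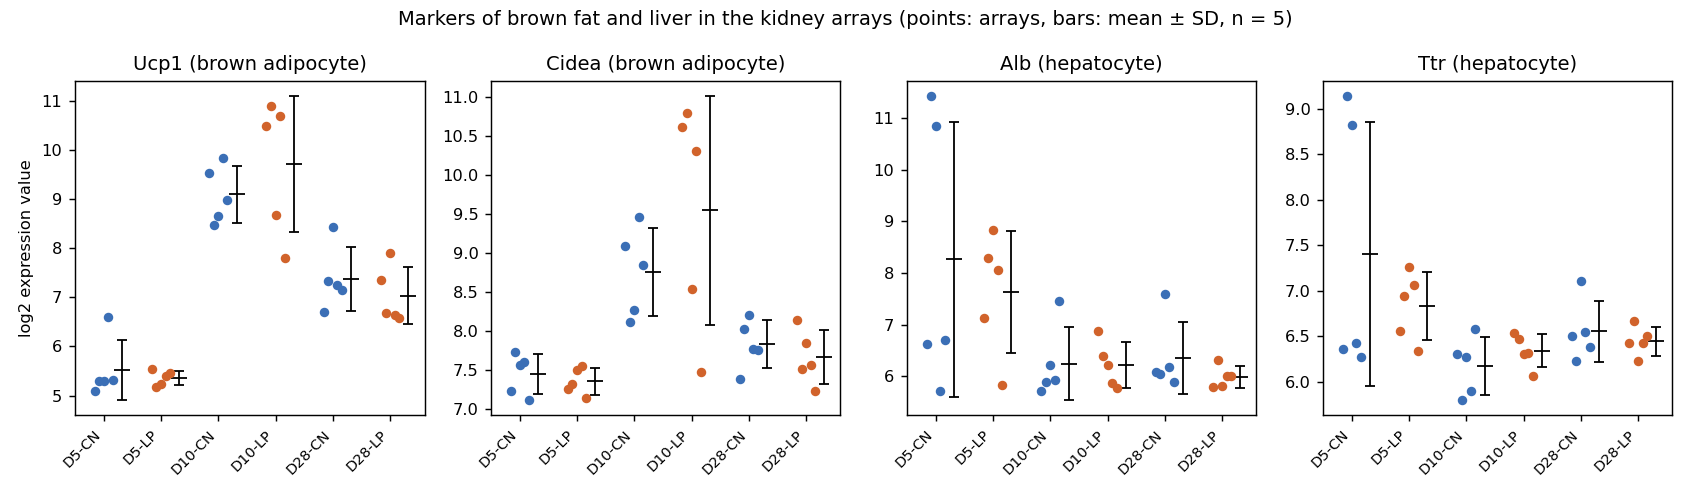
Levels (log2, vertical axis) of the brown fat genes *Ucp1* and *Cidea* and the liver genes *Alb* and *Ttr* on each of the 30 arrays, with 1 point an array and the 6 groups along the horizontal axis. *Ucp1* lay between 5.10 and 6.61 on the D5 arrays and between 7.80 and 10.89 on the D10 arrays, and *Alb* stood at 11.42 and 10.85 on 2 of the D5-CN arrays.

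Between ages, levels are compared with a limit that holds for every such value here. Array means were 6.93 to 6.94 at D5, and 6.86 to 6.87 at both D10 and D28, and 9 hybridization control probe sets, which read RNA spiked in at set amounts, averaged 9.87 to 9.96 in the D5 and D10 groups but 10.24 in the D28-CN and 10.35 in the D28-LP group. Whether the ages were hybridized or normalized together is not given in the sources used here, so age and such a batch cannot be told apart. In whole kidney, fewer cells of a type and less RNA per cell cannot be told apart either.

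The age steps were broad on the whole array. From D10 to D28, limma called 60.4% of the 31042 probe sets in the CN groups (31.5% higher and 28.9% lower) and 59.9% in the LP groups (31.1% higher and 28.8% lower) at an adjusted p under 0.05. Of the 8 genes, 3 were higher at D28 in each diet, *Acadm*, *Ppara* and *Ppargc1a*, and none was lower, so the count of 3 is near the share of all probe sets called higher. The median over the 8 genes was 0.19 in the CN and 0.34 in the LP groups on the log2 scale, beside a median of 0.02 over all probe sets in both. From D5 to D10 (44.6% of probe sets called in the CN and 39.9% in the LP groups), the 1 gene called was *Ppargc1a*, lower in both diets, and over the whole span from D5 to D28 (64.5% called in the CN groups, 29.0% higher and 35.6% lower, and 64.8% in the LP groups, 28.2% higher and 36.6% lower) *Acadm* and *Ppara* were higher and *Cpt2* was lower in both.

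**Figure D2:**
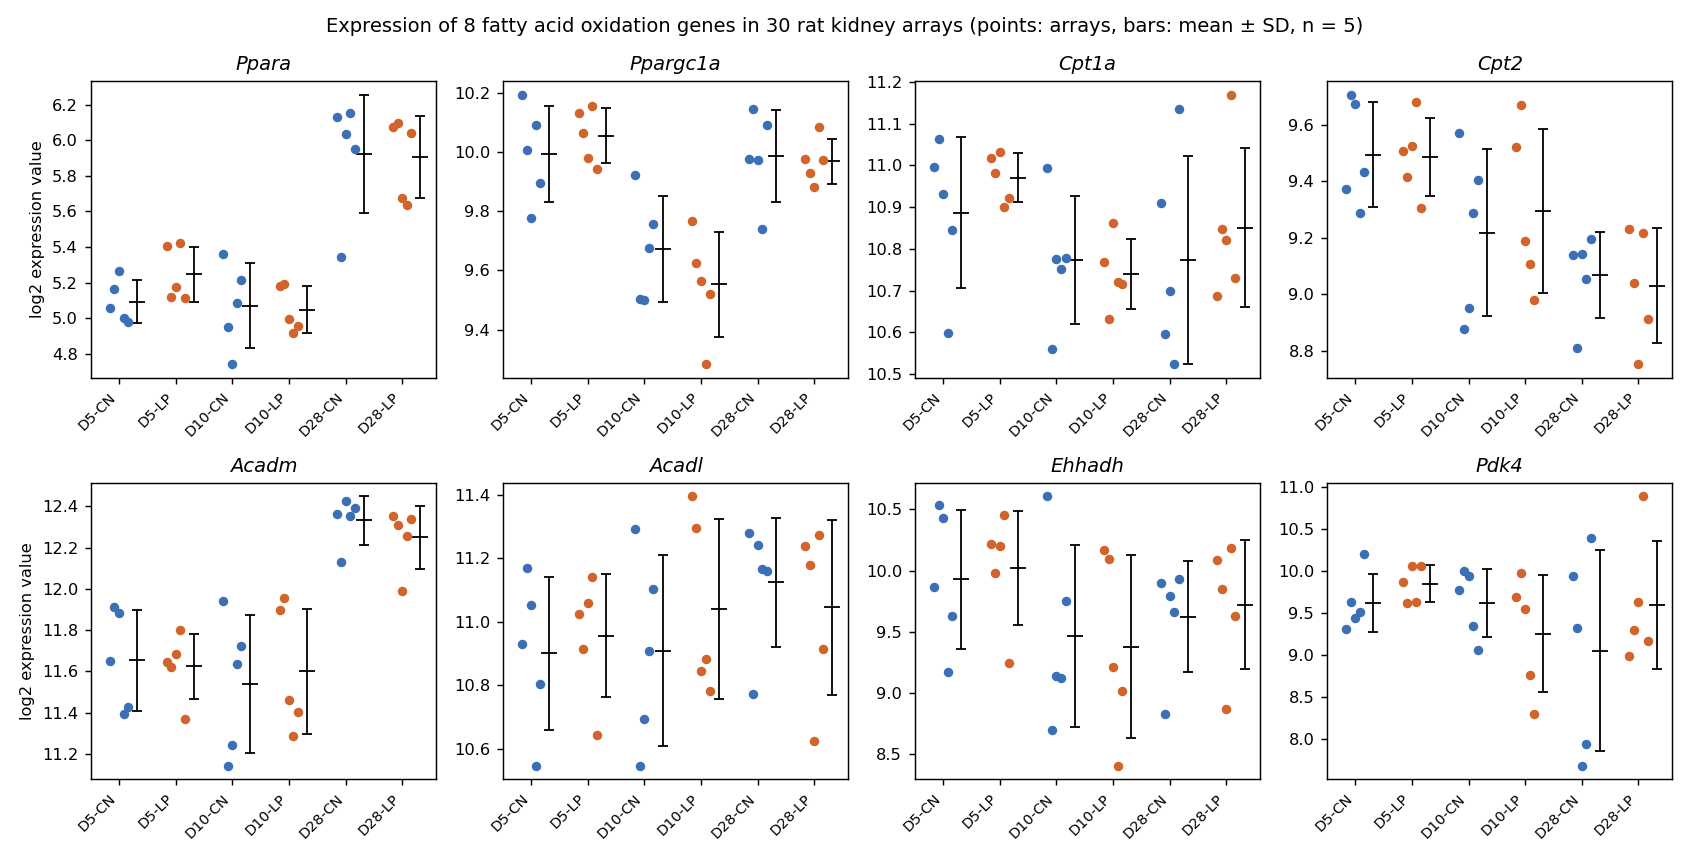
Levels (log2, vertical axis) of the lead probe set of each of the 8 genes, 1 panel a gene, in the 6 groups of age and maternal diet (horizontal axis), with 1 point an array and the mean ± SD (n = 5) beside the points. *Acadm* and *Ppara* stood higher at D28 than at D5 and D10 under both diets, *Cpt2* was lower at D28 than at D5, and *Ehhadh* in every group and *Pdk4* in the D10-LP and D28 groups were spread over more than 2-fold.

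Of the mitochondrial enzymes among the 8 genes, *Acadm* (probe set 1367702_at) differed most between D10 and D28. At D5, *Acadm* read 11.65, 11.91, 11.88, 11.39 and 11.43 on the D5-CN arrays and 11.64, 11.62, 11.69, 11.80 and 11.37 on the D5-LP arrays. At D10, *Acadm* read 11.94, 11.14, 11.25, 11.64 and 11.72 on the D10-CN arrays and 11.90, 11.95, 11.46, 11.29 and 11.40 on the D10-LP arrays. At D28, *Acadm* read 12.36, 12.13, 12.43, 12.35 and 12.39 on the D28-CN arrays and 12.35, 12.31, 11.99, 12.26 and 12.34 on the D28-LP arrays. No array of D28 fell to the level of any array of D5 or D10. The mean rose from 11.54 ± 0.33 (SD, n = 5) to 12.33 ± 0.12 (SD, n = 5) in the CN groups between D10 and D28, a difference of 0.79 (SE 0.14, 1.73-fold, limma, adjusted p = 1.9e-05, 2-sided exact permutation test, p = 0.00794), and from 11.60 ± 0.30 to 12.25 ± 0.15 in the LP groups, a difference of 0.65 (SE 0.14, 1.57-fold, limma, adjusted p = 0.000239, exact permutation p = 0.00794). An exact p of 0.00794 is the smallest that 5 arrays against 5 allow. Between D5 and D10 the differences were small, −0.12 in the CN and −0.02 in the LP groups. The 15 proximal tubule markers moved in the same step, with 12 higher in the CN and 10 in the LP groups and none lower (medians 0.85 and 0.64). Taken relative to the mean of those markers on each array, *Acadm* differed by −0.01 and 0.03, and neither value was called.

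The regulator *Ppara* rose over the same step, from a low signal. At D5, *Ppara* read 5.06, 5.16, 5.26, 5.00 and 4.98 on the D5-CN arrays and 5.41, 5.12, 5.17, 5.42 and 5.11 on the D5-LP arrays. At D10, *Ppara* read 5.36, 4.95, 4.74, 5.09 and 5.21 on the D10-CN arrays and 5.18, 5.19, 5.00, 4.91 and 4.95 on the D10-LP arrays. At D28, *Ppara* read 6.13, 5.34, 6.03, 6.16 and 5.95 on the D28-CN arrays and 6.08, 6.10, 5.68, 5.64 and 6.04 on the D28-LP arrays. Among the D28 arrays, replicate 2 of the D28-CN group alone reached down into the D10 range. The D10 to D28 difference was 0.85 (SE 0.13, 1.81-fold) in the CN groups, with an exact permutation p of 0.0159, and 0.86 (1.81-fold) in the LP groups, with an exact permutation p of 0.00794, and limma called both. From D5 to D28 the difference was 0.83 in the CN and 0.66 in the LP groups. Relative to the proximal tubule marker mean, the step from D10 was 0.05 in the CN and 0.24 in the LP groups, neither of which was called (limma, adjusted p = 0.735 and 0.137). *Ppara* was also dim, and a filter on dim probe sets left it out of the test.

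*Cpt2*, which completes the carnitine shuttle, went the other way. At D5, *Cpt2* read 9.37, 9.71, 9.67, 9.29 and 9.43 on the D5-CN arrays and 9.51, 9.41, 9.52, 9.68 and 9.31 on the D5-LP arrays. At D10, *Cpt2* read 9.57, 8.88, 8.95, 9.29 and 9.40 on the D10-CN arrays and 9.52, 9.67, 9.19, 9.11 and 8.98 on the D10-LP arrays. At D28, *Cpt2* read 9.14, 8.81, 9.14, 9.05 and 9.19 on the D28-CN arrays and 9.23, 9.04, 8.75, 9.22 and 8.91 on the D28-LP arrays. The D5 and D28 arrays did not overlap under either diet, while the D10 arrays spanned both ages. The fall from D5 to D28 was −0.43 (1.34-fold, limma, adjusted p = 0.00607) in the CN groups and −0.46 (1.37-fold, limma, adjusted p = 0.00369) in the LP groups, each with an exact permutation p of 0.00794. Neither step alone passed the threshold, with −0.28 and −0.19 from D5 to D10 and −0.15 and −0.26 from D10 to D28. Leaving out 1 array at a time gave −0.36 to −0.19 for the first CN step and −0.34 to −0.17 for the second LP step. Of 10 such fits for each step, 1 was called. These were the CN step without replicate 1 of D10-CN (limma, adjusted p = 0.0266) and the LP step without replicate 5 of D10-LP (limma, adjusted p = 0.0341). Without the 2 D5-CN arrays that were high in liver markers, the CN difference from D5 to D28 was −0.30 and was no longer called (limma, adjusted p = 0.0875). Relative to the proximal tubule marker mean, the D10 to D28 difference of *Cpt2* was −0.95 in the CN and −0.88 in the LP groups, both called.

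Promoter sequence is shown for these 3 genes because their lead probe sets differed between D5 and D28 under both diets. Each run spans 250 bases before to 50 bases after the gene start in RefSeq (build GRCr8), 5′ to 3′ along the gene, with capitals at matches to a CCAAT box (CCAAT) or a GC box (GGGCGG) on either strand. The windows are chr2:245542815-245543114 (minus strand) for *Acadm*, chr7:118712357-118712656 (plus strand) for *Ppara* and chr5:127910769-127911068 (minus strand) for *Cpt2*.
Acadm: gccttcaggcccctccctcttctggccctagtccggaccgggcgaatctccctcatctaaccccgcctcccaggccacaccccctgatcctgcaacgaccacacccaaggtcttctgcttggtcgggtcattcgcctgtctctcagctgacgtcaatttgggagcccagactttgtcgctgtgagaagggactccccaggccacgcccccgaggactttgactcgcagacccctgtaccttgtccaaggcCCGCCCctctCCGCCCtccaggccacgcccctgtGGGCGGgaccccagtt
Ppara: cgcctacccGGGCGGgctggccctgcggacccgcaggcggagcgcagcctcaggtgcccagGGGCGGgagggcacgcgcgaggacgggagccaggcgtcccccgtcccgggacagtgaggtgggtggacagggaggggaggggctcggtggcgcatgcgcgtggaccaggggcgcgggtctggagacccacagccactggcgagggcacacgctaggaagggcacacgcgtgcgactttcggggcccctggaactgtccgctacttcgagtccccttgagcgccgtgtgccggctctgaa
Cpt2: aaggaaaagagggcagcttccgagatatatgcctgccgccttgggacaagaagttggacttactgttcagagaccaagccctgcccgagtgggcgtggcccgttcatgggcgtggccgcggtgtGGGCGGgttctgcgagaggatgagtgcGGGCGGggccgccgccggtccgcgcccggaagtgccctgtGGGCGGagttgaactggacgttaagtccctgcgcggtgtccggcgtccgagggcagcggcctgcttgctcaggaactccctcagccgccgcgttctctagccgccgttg
All 3 windows held the GC box and none held the CCAAT box. Across the 7 of the 8 genes with a window (*Acadl* had none in the table), 5 held the GC box, beside 33.1% of the 33469 promoter windows of the table, and 3 held the CCAAT box (*Pdk4*, *Ehhadh* and *Ppargc1a*), beside 37.5%. A direct repeat of the kind bound by PPAR with its partner RXR, searched as 2 copies of AGGNCA with 1 base between them on both strands, was in 0 of the 7 windows and in 139 of 33469 (0.415%), and an extended receptor half-site of the kind bound by the estrogen-related receptors, TNAAGGTCA, was in 0 of the 7 and in 401 (1.20%). These are matches of letters in a short window, and binding was not measured.

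*Ppargc1a*, the coactivator, dipped at D10 by its lead probe set. At D5, *Ppargc1a* read 10.19, 10.01, 9.78, 10.09 and 9.90 on the D5-CN arrays and 10.13, 10.06, 9.98, 10.16 and 9.94 on the D5-LP arrays. At D10, *Ppargc1a* read 9.92, 9.50, 9.50, 9.68 and 9.76 on the D10-CN arrays and 9.77, 9.62, 9.57, 9.28 and 9.52 on the D10-LP arrays. At D28, *Ppargc1a* read 9.98, 10.15, 9.97, 9.74 and 10.09 on the D28-CN arrays and 9.98, 9.93, 9.88, 10.08 and 9.97 on the D28-LP arrays. In the LP groups all D10 arrays lay below all D5 and all D28 arrays, whereas in the CN groups replicate 1 of D10 reached into both neighbouring ages and replicate 5 into the D28 range. The fall from D5 to D10 was −0.32 in the CN groups (limma, adjusted p = 0.00507, exact permutation p = 0.0317) and −0.50 in the LP groups (limma, adjusted p = 6.9e-05, exact permutation p = 0.00794). The rise from D10 to D28 was 0.31 in the CN groups (limma, adjusted p = 0.00393, exact permutation p = 0.0238) and 0.42 in the LP groups (limma, adjusted p = 0.00027, exact permutation p = 0.00794). D28 then differed from D5 by −0.01 and −0.09. The CN fall was not called after quantile normalization (−0.20, limma, adjusted p = 0.0652).

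Of the further probe sets of *Ppargc1a*, both shared the rise to D28 and 1370089_at lacked the dip. At D5, probe set 1370089_at read 8.75, 9.11, 9.84, 9.29 and 8.48 on the D5-CN arrays and 9.24, 9.44, 9.49, 9.44 and 9.39 on the D5-LP arrays. At D10, probe set 1370089_at read 9.88, 9.06, 9.26, 9.43 and 9.57 on the D10-CN arrays and 10.02, 9.66, 9.49, 9.04 and 9.44 on the D10-LP arrays. At D28, probe set 1370089_at read 9.87, 10.43, 9.99, 10.08 and 10.31 on the D28-CN arrays and 10.26, 10.43, 10.35, 10.30 and 10.27 on the D28-LP arrays. This probe set climbed rather than fell, with D28 above D5 by 1.04 in the CN and 0.92 in the LP groups, both called, and with D10 to D28 steps of 0.69 and 0.79, both called, after uncalled steps of 0.35 and 0.13 from D5 to D10. Probe set 1395518_at differed by −0.24 and −0.36 from D5 to D10, of which only the LP step was called, and by 0.58 and 0.62 from D10 to D28, both called. With the mean of the 3 probe sets, the D5 to D10 difference was −0.07 in the CN and −0.24 in the LP groups and neither was called (limma, adjusted p = 0.639 and 0.0932). The rise after D10 was thus seen by all 3 probe sets in both diets, and the fall before it depended on the probe set. Relative to the proximal tubule marker mean, the D10 to D28 step of the lead probe set was −0.49 in the CN and −0.20 in the LP groups.

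Of the remaining 4 genes, none was called at any age step. *Cpt1a*, the gate of the carnitine shuttle, held group means of 10.89, 10.77 and 10.77 at D5, D10 and D28 in the CN groups and of 10.97, 10.74 and 10.85 in the LP groups. Its further probe set, 1367836_at, differed by 0.42 in the CN groups (limma, adjusted p = 0.0567) and by 0.28 in the LP groups (limma, adjusted p = 0.205) from D10 to D28, against 0.00 and 0.11 for the lead. Its 5 D10-LP arrays (10.63 to 10.86) lay below the 5 D5-LP arrays (10.90 to 11.03), a difference of −0.23 that missed the threshold in the fit of all arrays (limma, adjusted p = 0.0711, exact permutation p = 0.00794) and passed it when only these groups were fitted (limma, adjusted p = 0.0062). *Acadl*, the long-chain dehydrogenase, stayed within 10.90 to 11.12 in group means, and its D10 to D28 step was 0.22 in the CN and 0.00 in the LP groups. Relative to the proximal tubule markers, which rose, the same step was −0.80 and −0.50 for *Cpt1a* and −0.58 and −0.61 for *Acadl*.

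The peroxisomal gene *Ehhadh* differed more between arrays of a group than between groups. At D5, *Ehhadh* read 9.87, 10.54, 10.43, 9.18 and 9.63 on the D5-CN arrays and 10.22, 9.98, 10.20, 10.45 and 9.25 on the D5-LP arrays. At D10, *Ehhadh* read 10.61, 8.70, 9.14, 9.12 and 9.76 on the D10-CN arrays and 10.16, 10.10, 9.21, 8.41 and 9.02 on the D10-LP arrays. At D28, *Ehhadh* read 9.90, 8.83, 9.79, 9.66 and 9.93 on the D28-CN arrays and 10.09, 9.85, 8.87, 10.18 and 9.63 on the D28-LP arrays. In the D10-CN group the highest array stood 3.76-fold above the lowest, and in the other groups this range was 2.14-fold or more. Group means were 9.93, 9.47 and 9.62 in the CN and 10.02, 9.38 and 9.72 in the LP groups, and every age overlapped every other. The 2 highest D5-CN arrays, replicates 2 and 3, were those high in liver markers, and the part of liver RNA in their values was not tested. Its pooled SD within groups was 0.595, larger than that of 99.8% of probe sets, where the median was 0.127.

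*Pdk4*, the brake on glucose oxidation, was the most variable of the 8. At D5, *Pdk4* read 9.31, 9.64, 9.44, 9.51 and 10.20 on the D5-CN arrays and 9.87, 9.62, 10.06, 9.63 and 10.06 on the D5-LP arrays. At D10, *Pdk4* read 9.78, 10.00, 9.94, 9.34 and 9.06 on the D10-CN arrays and 9.69, 9.97, 9.55, 8.76 and 8.29 on the D10-LP arrays. At D28, *Pdk4* read 9.94, 9.32, 7.68, 7.94 and 10.39 on the D28-CN arrays and 8.99, 9.30, 9.64, 10.89 and 9.17 on the D28-LP arrays. Of the D28-CN arrays 2 stood at 7.68 and 7.94 and 3 at 9.32 to 10.39, a range of 6.55-fold, and replicate 4 of D28-LP held the highest value of all 30 arrays. A pooled SD within groups of 0.689 placed it above 99.9% of probe sets. The group means were 9.62, 9.62 and 9.05 ± 1.20 in the CN groups, and 9.85, 9.25 and 9.60 ± 0.76 (SD, n = 5) in the LP groups, and no age step was called. Without replicate 5 of the D28-CN group, the D5 to D28 difference in the CN groups moved from −0.57 to −0.90 and was called (limma, adjusted p = 0.0484). Its further probe set, 1369150_at, differed by 0.06 and 0.61 from D10 to D28, against −0.57 and 0.34 for the lead. Relative to the proximal tubule marker mean the lead probe set differed by −1.37 in the CN groups, which was called (limma, adjusted p = 0.00554), and by −0.27 in the LP groups.

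Genes with patterns most like *Pdk4* over the 30 arrays, out of 9456 candidates, were *Klf11* (r = 0.734), the lipoprotein lipase inhibitor *Angptl4* (r = 0.731) and *Pnrc1* (r = 0.666). *Angptl4* is, like *Pdk4*, a known target of PPARs. On the D28-CN arrays *Angptl4* read 8.51, 8.49, 6.83, 7.07 and 9.13, low on the same replicates 3 and 4 as *Pdk4*. On the D28-LP arrays it read 8.09, 8.28, 9.01, 10.12 and 7.67, highest on replicate 4, as *Pdk4* was. These correlations across arrays are descriptions, and arrays of a group share an age and a diet.

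With the group means removed, 4 of the enzymes moved together from array to array. Pearson's r over the 30 arrays was 0.94 for *Cpt2* with *Acadl* and for *Acadl* with *Ehhadh*, 0.92 for *Acadm* with *Cpt2* and with *Ehhadh*, 0.91 for *Cpt2* with *Ehhadh* and 0.90 for *Acadm* with *Acadl*. Within a single age, *Acadl* with *Ehhadh* gave 0.99 at D5, 0.91 at D10 and 0.97 at D28, and *Cpt2* with *Acadm* gave 0.91, 0.98 and 0.79. The receptor *Ppara* followed these enzymes less closely, with r from 0.67 to 0.72. The other 3 genes had lower r with these 4 enzymes, from 0.34 to 0.48 for *Cpt1a*, from 0.39 to 0.48 for *Ppargc1a* and from −0.02 to 0.17 for *Pdk4*. For *Ppargc1a* this came from D10 alone, where r with the 4 enzymes was 0.82 to 0.93, against −0.21 to 0.01 at D5 and −0.08 to 0.12 at D28. *Pdk4* with *Cpt1a* gave r = 0.53 and rho = 0.37 (permutation test, adjusted p = 0.0563 for r and 0.162 for rho over 60 relations), and 0.43 without the 2 farthest arrays. Within ages it was 0.84 at D28, −0.05 at D5 and −0.06 at D10.

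The block of 4 also moved with the proximal tubule markers. *Ehhadh* followed their mean with r = 0.94 and rho = 0.89 over the 30 arrays (permutation test, adjusted p = 4e-05 for r and 3.53e-05 for rho), with 0.97, 0.99 and 0.82 within D5, D10 and D28 and 0.93 without the 2 farthest arrays. The other r values with this mean were 0.93 for *Acadm*, 0.90 for *Acadl*, 0.85 for *Cpt2* and 0.81 for *Ppara*, against 0.34 for *Cpt1a*, 0.36 for *Ppargc1a* and −0.07 for *Pdk4*. Other array measures moved with the same genes. The gap between 3′ and 5′ probe sets of the control transcripts (3′ minus 5′), a sign of RNA degradation, gave r from −0.85 to −0.79 with the 4 enzymes and −0.64 with *Ppara*, and the medulla minus cortex marker score gave r from −0.72 to −0.61 with the enzymes and −0.81 with *Ppara*. That score shares most of its cortex genes with the tubule markers, so its r values are not separate from theirs. The adipose marker mean gave r from 0.28 to 0.51 with the enzymes (permutation test, adjusted p = 0.0654 or more) and 0.23 with *Ppara*. Within ages its r with the enzymes was 0.44 to 0.70 at D10, 0.05 to 0.29 at D5 and −0.19 to −0.02 at D28. The adipose marker mean includes *Pck1*, which was high in every group. The part of tissue share and of RNA quality in these relations was not tested. For *Pdk4*, r was −0.01 with the 3′ minus 5′ difference.

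**Figure D3:**
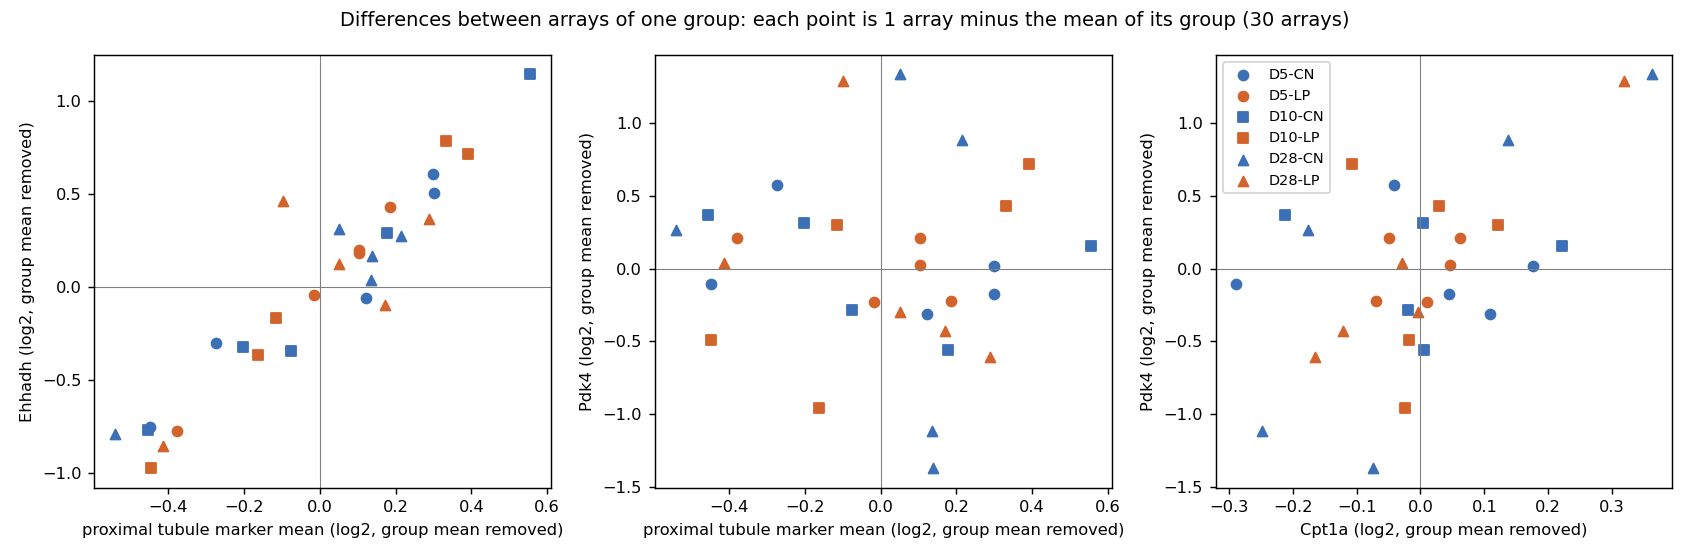
Deviations of single arrays from their group mean (log2, both axes), 1 point an array and 30 in all, for *Ehhadh* against the proximal tubule marker mean, *Pdk4* against that mean, and *Pdk4* against *Cpt1a*. The first panel forms a line (r = 0.94), the second does not (r = −0.07), and the third (r = 0.53) rests on the D28 arrays.

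The genes most like each member over the 30 arrays, by Pearson's r with their lead probe sets, differed by member. Here the group means were kept, unlike in the relations above, so differences between ages and diets enter these r values. For *Cpt2* they were *Slc25a20* (r = 0.978), which encodes the carnitine-acylcarnitine translocase of the inner mitochondrial membrane, *Yipf1* (0.939) and *Sco1* (0.936). For *Acadm* they were *Rnls*, *Pdzk1ip1* and *Gamt*, all at 0.984, and for *Ppara* they were *Abat* (0.968), *Prkaa2* (0.964), a catalytic subunit of the AMP-activated kinase, and *Pxmp2* (0.964). For *Acadl* they were the glycerol-3-phosphate dehydrogenase *Gpd1* (0.908), the carnitine transporter *Slc22a5* (0.906) and the acyl-CoA synthetase *Acsl1* (0.889), and for *Ehhadh* they were the dienoyl-CoA reductase *Decr1* (0.927), *Acot1* (0.921) and *Miox* (0.920). *Ppargc1a* was less closely matched, with *Smpx* at 0.858, *Syf2* at 0.853 and *Arhgap42* at 0.850, as was *Cpt1a*, with *Slc25a34* at 0.731, *Ptpn18* at 0.650 and *Nedd4l* at 0.632.

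Maternal diet was compared within each age, to ask whether protein restriction in pregnancy left a difference in these genes. None of the 8 genes was called at an adjusted p under 0.2 at D5, D10 or D28, where limma called 0.00644%, 0% and 0% of the 31042 probe sets (2541, 1558 and 1890 had an unadjusted p under 0.05). The LP minus CN median over the 8 genes was 0.07 (D5), −0.03 (D10) and −0.02 (D28), with 6, 3 and 3 genes above 0. The arrays of the 2 diets overlapped for every one of the 8 genes at every age, and exact permutation p-values ran from 0.135 to 0.937. At this number of arrays the intervals still allow differences in either direction.

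For the genes that rose between D10 and D28, the diet differences were small beside the age steps. *Acadm* differed by −0.03 at D5 (95% interval −0.27 to 0.22), 0.06 at D10 (−0.33 to 0.45) and −0.08 at D28 (−0.26 to 0.10). *Ppara* differed by 0.15 at D5 (−0.03 to 0.33, exact permutation p = 0.135), with all 5 D5-LP arrays above the D5-CN mean, and by −0.02 at D10 and at D28. *Ppargc1a* differed by 0.06, −0.12 and −0.02. All these values lie within the spread between arrays of a group.

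The shuttle enzymes were as close. *Cpt1a* differed by 0.08 at D5 (95% interval −0.09 to 0.26), −0.03 at D10 and 0.08 at D28 (−0.19 to 0.35), and all 5 D5-LP arrays lay above the D5-CN mean. *Cpt2* differed by −0.01, 0.07 and −0.04, *Acadl* by 0.06, 0.13 and −0.08, and *Ehhadh* by 0.09, −0.09 and 0.10, with intervals for *Ehhadh* as wide as −0.97 to 0.80 at D10.

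The diet difference farthest from 0 was that of *Pdk4* at D28, and its error was as large. The D28-LP mean exceeded the D28-CN mean by 0.55 (SE 0.54, 95% interval −0.63 to 1.72, exact permutation p = 0.421), after 0.23 at D5 (exact permutation p = 0.270) and −0.37 at D10 (exact permutation p = 0.333). Single arrays moved it, with 0.88 when replicate 5 of D28-CN and 0.22 when replicate 4 of D28-LP was left out, and the further probe set gave 0.48. The change of the diet difference from D10 to D28 was 0.92 (SE 0.57, 95% interval −0.26 to 2.09) and was not called (limma, adjusted p = 0.935). For none of the 8 genes did the diet difference change with age past the threshold, and 0% of probe sets did (1441, 1149 and 1349 at an unadjusted p under 0.05 in the 3 contrasts). Averaged over the 3 ages, limma called 0.312% of probe sets for diet, and none of the 8 genes among them.

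**Figure D4:**
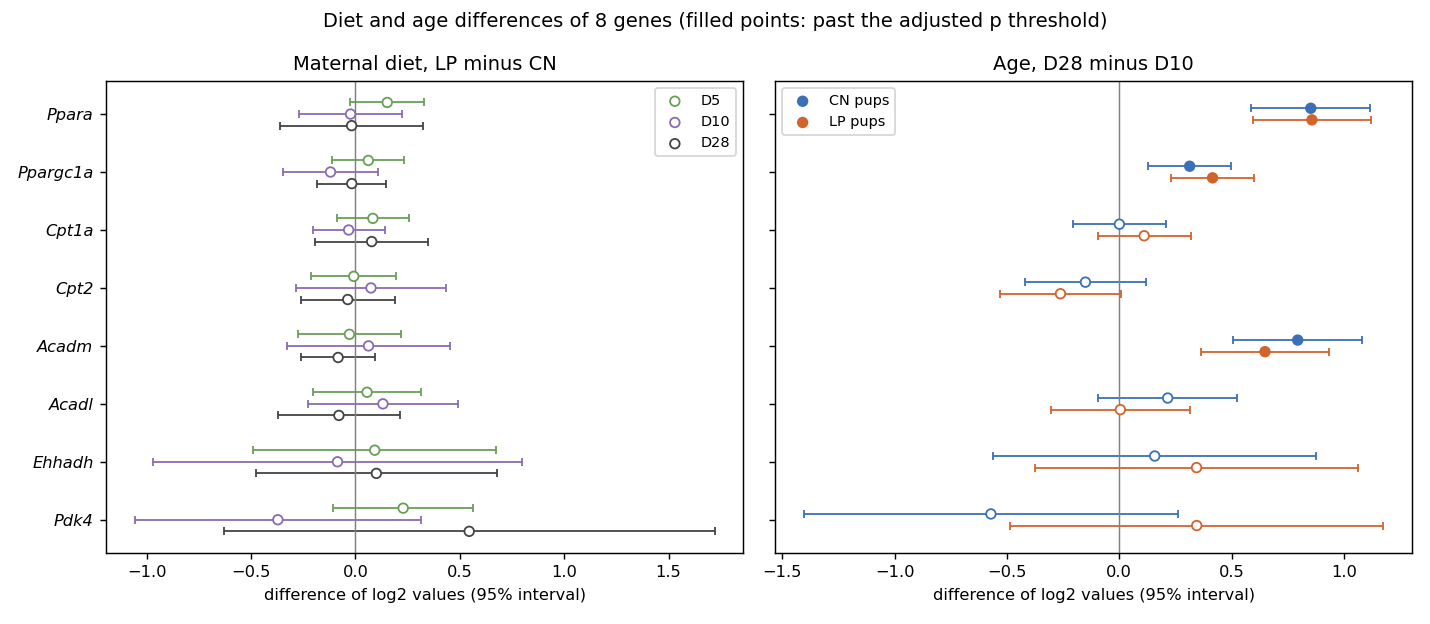
Differences of group means (log2, horizontal axis) for the 8 genes (vertical axis), with the LP minus CN difference at D5, D10 and D28 on the left and the D28 minus D10 difference in the CN and LP groups on the right. Bars are 95% intervals and filled points passed the threshold, which on the left none did and on the right *Acadm*, *Ppara* and *Ppargc1a* did in both diets.

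The other genes of the pathway were followed through lists of the steps of fatty acid use. Between D10 and D28, more genes rose than fell in every list, beside 31.5% of all probe sets higher and 28.9% lower in the CN groups and 31.1% and 28.8% in the LP groups. Of 16 genes of uptake and activation, 6 were higher and 1 was lower in the CN groups and 4 were higher and 3 lower in the LP groups, among them the acyl-CoA synthetase *Acsm3* (higher by 2.32 in the CN and 2.12 in the LP groups), the very long chain synthetase and transporter *Slc27a2* (1.44 and 1.22) and the scavenger receptor *Cd36* (0.95 in the CN groups). The adipocyte fatty acid binding protein *Fabp4* differed by −1.17 in the LP groups. From D5 to D10 its steps were 2.15 in the CN and 2.70 in the LP groups, when the adipose marker mean also rose. The part of adipose tissue in its values was not tested. Of 7 genes of the carnitine shuttle, 5 were higher in the CN and 3 in the LP groups, with the carnitine acetyltransferase *Crat* at 0.72 and 0.68 and the octanoyltransferase *Crot* at 0.62 and 0.40.

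Within mitochondria, 11 of 20 beta-oxidation genes were higher and none was lower in the CN groups, and 9 were higher and 2 lower in the LP groups (medians 0.33 and 0.26). The short branched chain dehydrogenase *Acadsb* rose by 1.11 and 0.78 and the short-chain dehydrogenase *Acads* by 0.58 and 0.60, beside 0.79 and 0.65 for *Acadm*. In peroxisomes 12 of 14 genes were higher in the CN and 10 in the LP groups, with 1 lower in each (medians 0.55 and 0.44). The branched-chain oxidase *Acox2* rose by 1.38 and 1.20 and the dienoyl-CoA reductase *Decr2* by 1.12 and 0.85, whereas *Ehhadh*, of the same organelle, was at 0.16 and 0.34 and was not called.

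In the list of ketone body synthesis and use, 5 of 8 measured genes were higher and none was lower in both diets (medians 0.73 and 0.57). They included the ketolytic enzymes *Bdh1* (1.02 and 0.77), which interconverts hydroxybutyrate and acetoacetate, and *Oxct1* (0.96 and 0.77), which activates acetoacetate, and the monocarboxylate carrier *Slc16a7* (1.03 and 0.95). From D5 to D10 both enzymes had fallen, *Bdh1* by −0.63 and −0.48 and *Oxct1* by −0.42 and −0.40. Of the 20 mitochondrial genes none was higher in that earlier step, and 8 were lower in the CN and 5 in the LP groups, while 14.3% of all probe sets were called higher and 30.3% lower in the CN and 11.2% and 28.7% in the LP groups. This split of the calls moved with the scaling, from 32.0% higher in the CN and 28.2% in the LP groups to 48.4% and 48.0% after quantile normalization.

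Of 22 regulators of the PPAR and PGC-1 system, 9 rose and 3 fell in the CN groups and 11 rose and 3 fell in the LP groups from D10 to D28. The kinase subunit *Prkaa2* (1.08 and 0.97), the orphan receptor *Esrrb* (0.96 and 1.26) and the coactivator *Ppargc1b* (0.91 and 1.08) rose beside *Ppara* and *Ppargc1a*. Of 19 known PPAR targets, 12 rose in the CN and 13 in the LP groups, with 1 lower in each. The fatty acid omega-hydroxylase *Cyp4a8* went from 5.46 to 11.83 in the CN groups, a difference of 6.38, and from 5.27 to 11.86 in the LP groups, a difference of 6.59, while its relative *Cyp4a1* rose by 1.55 and 1.53 and the monoglyceride lipase *Mgll* by 1.59 and 1.56. The D10 level of *Cyp4a8* lay below the median probe set, and whether it was above background was not tested, so its difference may be understated. Members of the Cyp4a family are similar in sequence, and how far their probe sets cross-hybridize was not tested.

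The glucose side moved as well. Of 14 genes of the pyruvate dehydrogenase system 8 rose and 4 fell in the CN groups and 7 rose and 4 fell in the LP groups, with the mitochondrial pyruvate carrier subunits *Mpc1* (0.96 and 0.79) and *Mpc2* (0.83 and 0.67) and the kinase *Pdk2* (0.77 and 0.88) higher at D28. *Pdk2* was thus called in both diets and *Pdk4* in neither. Of 11 genes of fatty acid synthesis 7 rose in both diets, with 1 lower in the CN and none in the LP groups (medians 0.80 and 0.81). The stearoyl-CoA desaturase *Scd* rose by 4.11 and 3.22, the carboxylase *Acacb*, whose product inhibits the first shuttle step, by 1.33 and 1.36, and the carbohydrate-responsive factor *Mlxipl* by 1.20 and 1.21. At D10 *Scd* (5.10 and 5.45) and *Acacb* were also below the median probe set, and their differences carry the same limit.

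**Figure D5:**
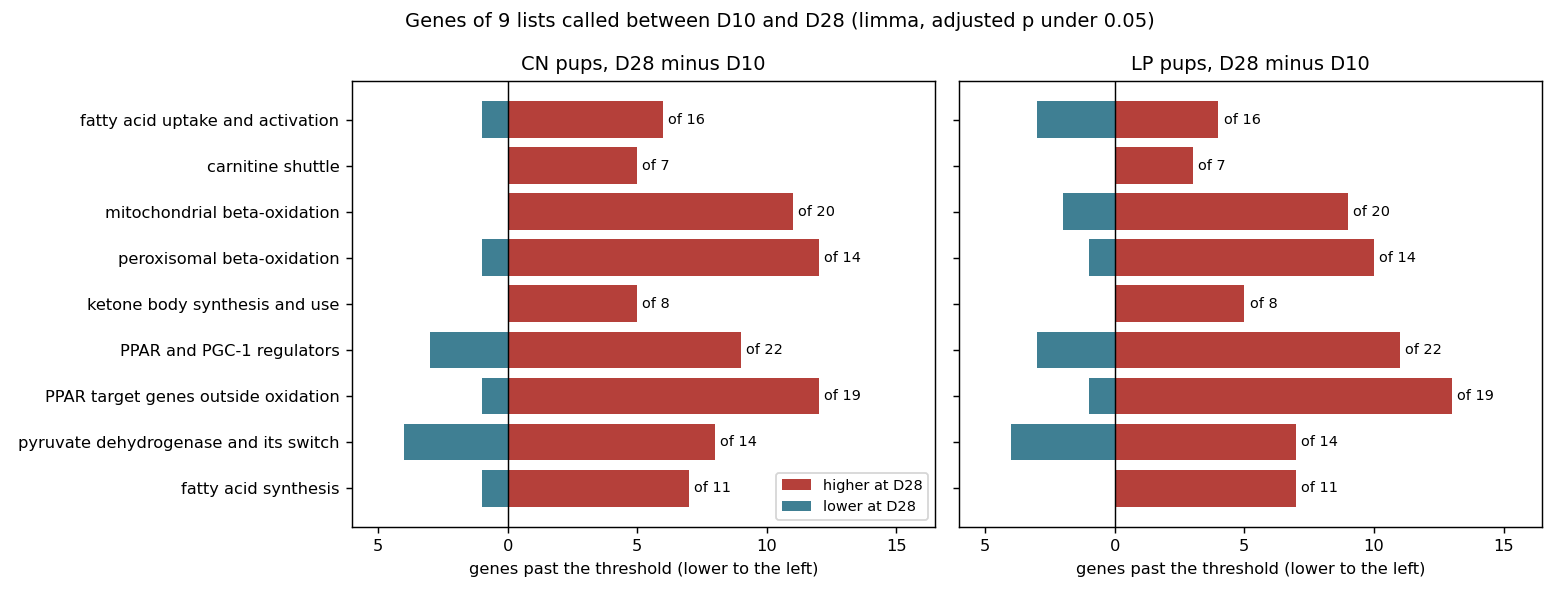
Number of genes (horizontal axis) called higher or lower from D10 to D28 in each list of fatty acid and fuel genes (vertical axis), in the CN and the LP groups. In the peroxisomal list 12 of 14 genes were higher in the CN and 10 in the LP groups, and in the ketone body list 5 of 8 were higher in both.

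For maternal diet, no gene of these lists was called at any age. At D28, 0 of the 7 carnitine shuttle genes and 0 of the 8 ketone body genes lay above 0 in LP minus CN, as did 2 of the 20 mitochondrial and 2 of the 14 peroxisomal genes, while the median over all probe sets was −0.01 and 43.8% of them lay above 0. Of the regulators 13 of 22, and of the PPAR targets 12 of 19, lay above 0 at D28. At D10 the counts ran the other way, with 18 of the 20 mitochondrial and 12 of the 14 peroxisomal genes above 0, beside 48.4% of all probe sets. The median of the ketone body genes at D28 was −0.14, and *Bdh1* had the smallest p among them, with a difference of −0.22 (limma, unadjusted p = 0.0446, adjusted p = 0.770). The proximal tubule marker mean was also lower in the D28-LP than in the D28-CN group, 11.56 against 11.68. At D10 this mean was higher in the D10-LP than in the D10-CN group, 10.95 against 10.88. The adipose marker mean was higher there too, 7.69 against 7.34, and highest on replicates 1, 2 and 4 of D10-LP. Without those arrays the D10 diet differences of *Cpt2*, *Acadm* and *Acadl* fell below 0, and that of *Cpt1a* rose above 0. The 3′ minus 5′ difference was 0.56 in the D28-CN and 0.62 in the D28-LP group, and 0.57 and 0.59 at D10. The medulla minus cortex score was −0.28 and 0.02 at D28, and −0.25 and −0.15 at D10. Genes of a list can move together from array to array, as 4 of the enzymes did. They are not independent, and the counts were not tested. The part of these marker means and array measures in the counts was not tested.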

How the data were processed

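The authors summarized the arrays in R 3.3.2 (qFARMS, from the names of their tables) and deposited a log2 value for each of 31099 probe sets and 30 arrays. Per-age tables with the authors' own comparisons and 30 array columns that name no sample were not used. Of the probe sets, 57 controls were left out and 31042 were tested, of which 20826 carried 1 gene symbol, 436 several and 9780 none in the platform annotation. The log2 values were used without a further normalization or filter. Replicate arrays correlated at 0.983 to 0.998.

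Diet groups were compared within each age by lmFit and eBayes of limma (version 3.58.1, R version 4.3.3), 2-sided, with Benjamini-Hochberg adjustment over all probe sets and a threshold of 0.2, the FDR that the methods give for rank products, which were not rerun here. The methods name an unpaired t-test for the 2 diet groups at each age, and ANOVA with Tukey's test where offspring age is a factor. Here that t-test was tried as an alternative for diet and also for age steps. Age steps, the change of the diet effect between ages and the diet effect averaged over ages came from 1 fit of 6 group means, at 0.05 for age steps and 0.2 otherwise. Single differences were tested by exact permutation of 5 arrays against 5, and 60 relations between array deviations by 100000 permutations within groups. The fits were tested on simulated data. The genes, gene lists and tests were chosen with earlier results of these data known. Named genes were the 8, up to 4 from each list and comparison with the largest change among those called (otherwise the 2 with the smallest p), and for each of the 8 the 3 genes most like it. Alternatives covered scaling, dim probe sets, variance models, other tests, other probe sets, a replicate block and leaving out arrays. Promoter windows came from RefSeq. Further tools were Python 3.11.15, pandas 2.3.3, scipy 1.17.1 and matplotlib 3.10.9.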

Additional observations from a re-analysis of the deposited data

Results flagged for a closer look

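In groups of 5 arrays, 5 of the 48 sets of values held an array that stood apart from the other 4 by Dixon's test. For a single set chance gives about 1 in 20, but the sets share arrays and genes that moved together. They are not independent, and the count was not tested. All 5 flagged values were the lowest of their group and came from 2 arrays at D28. Replicate 2 of the D28-CN group was low for *Acadm* (12.13, next 12.35), *Acadl* (10.77, next 11.16), *Ehhadh* (8.83, next 9.66) and *Ppara* (5.34, next 5.95), and replicate 3 of the D28-LP group was low for *Acadm* (11.99, next 12.26). These were also the D28 arrays with the lowest proximal tubule means (11.14 and 11.15) and the highest medulla minus cortex scores (0.41 and 0.65), with a 3′ minus 5′ difference of 0.64 and 0.79, and the part of these measures was not tested. The score and the tubule mean share genes. Without replicate 2 of D28-CN the D10 to D28 difference was 0.84 for *Acadm*, 1.00 for *Ppara*, 0.30 for *Acadl* (limma, adjusted p = 0.0912) and 0.36 for *Ehhadh* in the CN groups, and without replicate 3 of D28-LP that of *Acadm* was 0.71 in the LP groups.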

How the results depend on the processing

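No setting run here brought any of the 8 genes past the threshold for maternal diet, and leaving out single arrays ended none of the called age steps. The calls of *Acadm* and *Ppara* between D10 and D28 held in every setting but the one relative to the tubule markers and, for the dim *Ppara*, the filter on dim probe sets, which left it untested. The counts over all probe sets moved more. The 2 probe sets called for diet at D5 became 4 after quantile normalization, 4 without dim probe sets, 5 with a trended and robust variance, 38 with all 30 arrays in 1 fit, and 0 with the methods' t-test, with a medulla minus cortex covariate, at a threshold of 0.05 and without the 2 liver-high D5-CN arrays. At D10 the count of 0 became 8 with all arrays in 1 fit and 1 with the methods' t-test, and at D28 it became 1 with all arrays in 1 fit. Without dim probe sets fewer were tested, and the age steps counted 7301 (CN) and 5840 (LP) from D5 to D10, 9924 and 9711 from D10 to D28, and 10815 and 10748 from D5 to D28. The 97 probe sets called for diet averaged over ages became 63 after quantile normalization, 1252 after median centring (20.8% of them higher, against 49.5%), 8 without dim probe sets, 2 without the 3 adipose-high D10-LP arrays and 34 without the 2 liver-high D5-CN arrays, which also gave 3 for the change of the diet effect from D5 to D28. The cause of these moves was not tested.

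Median centring gave 42.0% higher among the calls from D5 to D10 in the CN and 39.2% in the LP groups, and 54.3% and 53.7% from D5 to D28, where the deposited values gave 44.9% and 43.6%. Replicate numbers did not pair the arrays, since r between the deviations of same-numbered arrays ran from −0.70 to 0.66, and with the replicate number as a block the diet counts were 1 at D5, 25 averaged over ages, 2 for the change from D5 to D10 and 1 for that from D5 to D28. Leaving out 1 array at a time gave 0 to 67 calls for diet at D5, 0 to 3, 0 to 4 and 0 to 2 for the changes of the diet effect (D5 to D10, D10 to D28 and D5 to D28), and 2 (without replicate 3 of D5-LP) to 1486 (without replicate 5 of D28-LP) averaged over ages.

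Signs turned as follows. Of these differences only the D5 to D10 falls of *Ppargc1a* and the D10 to D28 rises of *Acadm* and *Ppargc1a* were called with the deposited values and lead probe sets. After quantile normalization they were *Cpt1a* 0.033 (D5 to D10 in CN) and −0.057 (D10 to D28 in CN), *Acadm* 0.038 (D5 to D10 in CN) and 0.13 (D5 to D10 in LP), *Acadl* −0.068 (D10 to D28 in LP), *Ppara* 0.017 (D5 to D10 in CN), *Ppargc1a* 0.10 (D5 to D28 in CN) and 0.0085 (D5 to D28 in LP). Median centring gave *Acadm* 0.015 (D5 to D10 in LP), *Ppara* 0.015 (D5 to D10 in CN), *Ppargc1a* 0.069 (D5 to D28 in CN). The medulla minus cortex covariate gave *Cpt2* 0.018 (diet at D5) and 0.043 (diet at D28), *Acadm* 0.018 (diet at D5), *Acadl* 0.039 (diet at D28), *Ehhadh* 0.19 (diet at D10), *Ppara* 0.032 (diet at D10) and 0.15 (diet at D28). With the mean of all probe sets they were *Cpt1a* 0.025 (diet at D10) and 0.086 (D5 to D28 in CN), *Ppargc1a* 0.050 (diet at D28), 0.46 (D5 to D28 in CN), 0.37 (D5 to D28 in LP), *Pdk4* 0.099 (D5 to D28 in LP). Single further probe sets gave *Cpt1a* 0.082 (diet at D10), −0.058 (diet at D28), 0.29 (D5 to D28 in CN), 0.083 (D5 to D28 in LP), *Pdk4* 0.064 (D10 to D28 in CN), 0.089 (D5 to D28 in CN), 0.45 (D5 to D28 in LP), and *Ppargc1a* 0.092 (diet at D10), 0.19 (diet at D28), 0.35 (D5 to D10 in CN), 0.13 (D5 to D10 in LP), 1.04 (D5 to D28 in CN), 0.92 (D5 to D28 in LP) for 1370089_at and *Ppargc1a* 0.34 (D5 to D28 in CN) and 0.26 (D5 to D28 in LP) for 1395518_at. Chosen after the data were seen, leaving out the liver-high arrays gave *Cpt2* 0.12 (diet at D5), *Acadm* 0.13 (diet at D5) and 0.047 (D5 to D10 in CN), *Ppargc1a* −0.0057 (diet at D5), *Ppara* 0.059 (D5 to D10 in CN), *Pdk4* −0.049 (D5 to D10 in CN), *Ehhadh* 0.065 (D5 to D28 in CN), leaving out the adipose-high arrays gave *Cpt1a* 0.016 (diet at D10), *Cpt2* −0.13 (diet at D10), *Acadm* −0.10 (diet at D10), *Acadl* −0.095 (diet at D10) and −0.14 (D5 to D10 in LP), and values relative to the tubule markers were *Cpt1a* −0.80 (D10 to D28 in CN) and −0.50 (D10 to D28 in LP), *Acadm* −0.0053 (D10 to D28 in CN), *Acadl* −0.58 (D10 to D28 in CN) and −0.61 (D10 to D28 in LP), *Ehhadh* −0.64 (D10 to D28 in CN) and −0.27 (D10 to D28 in LP), *Ppargc1a* −0.49 (D10 to D28 in CN) and −0.20 (D10 to D28 in LP), *Pdk4* −0.27 (D10 to D28 in LP).

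Leaving out 1 array at a time turned these ranges across 0. For diet at D10 they were −0.085 to 0.023 for *Cpt1a*, −0.019 to 0.16 for *Cpt2*, −0.036 to 0.16 for *Acadm*, −0.28 to 0.20 for *Ehhadh*, −0.11 to 0.050 for *Ppara*. For diet at D28 they were −0.0016 to 0.17 for *Cpt1a*, −0.10 to 0.033 for *Cpt2*, −0.17 to 0.026 for *Acadl*, −0.097 to 0.31 for *Ehhadh*, −0.16 to 0.049 for *Ppara*, −0.078 to 0.023 for *Ppargc1a*. From D10 to D28 in the CN groups they were −0.090 to 0.062 for *Cpt1a*, −0.034 to 0.44 for *Ehhadh*. For diet at D5 they were −0.059 to 0.045 for *Cpt2*, −0.093 to 0.036 for *Acadm*, −0.033 to 0.13 for *Acadl*, −0.096 to 0.29 for *Ehhadh*. From D5 to D10 in the LP groups they were −0.11 to 0.055 for *Acadm*, −0.0046 to 0.15 for *Acadl*. From D5 to D10 in the CN groups they were −0.088 to 0.098 for *Acadl*, −0.095 to 0.060 for *Ppara*, −0.089 to 0.15 for *Pdk4*. From D10 to D28 in the LP groups they were −0.060 to 0.11 for *Acadl*. From D5 to D28 in the CN groups they were −0.062 to 0.053 for *Ppargc1a*. The number of arrays, 5 a group, limits the precision of every value, and *Ppara* is read from a dim probe set.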
